A study of Mus musculus with 10 samples.

Results

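Class II antigen presentation was followed through 10 genes in renin cells sorted from mouse kidneys. These were the class II chain genes H2-Aa, H2-Ab1 and H2-Eb1, the invariant chain gene Cd74, the peptide exchange genes H2-DMa and H2-DMb1, the transactivator gene Ciita, the protease gene Ctss and the macrophage complement genes C1qa and C1qb. They were taken by symbol and were 10 of the 32648 genes in the table. They were chosen by values of these libraries: H2-Aa, H2-Ab1 and Cd74 had been seen to be higher in the right than in the left kidney of all 3 mice with aortic coarctation, and the other 7 were added as genes of the same pathway or of macrophages. Differences between the right and left kidneys of those mice are therefore given as a description, with no test.

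The study asked how renin cells respond when the aorta is narrowed between the origins of both renal arteries. All mice were C57BL/6 animals of 8 to 12 weeks carrying the Ren1c-YFP reporter, a yellow fluorescent protein driven by the renin promoter, and 1000 living fluorescent cells were sorted from the cortex of each kidney 72 hours after surgery. The groups were right kidneys of coarctation mice (3 libraries), left kidneys of coarctation mice (3 libraries), right kidneys of sham mice (2 libraries) and left kidneys of sham mice (2 libraries), and the right and left library of one number came from the same mouse. Sham mice had surgery in which the aorta was neither exposed nor narrowed, and a reporter driven by the renin promoter selects cells by renin expression.

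Class II molecules are pairs of alpha and beta chains that carry peptides from the endosome to the cell surface, where CD4+ T cells read them. The invariant chain CD74 fills the groove until cathepsin S, the product of Ctss, trims it, and H2-DM then exchanges the remaining fragment for peptide. CIITA switches these genes on together in dendritic cells, B cells and activated macrophages, and interferon gamma can induce it in other cells. C1q, the recognition protein of the classical complement pathway, is made in most tissues by macrophages.

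Of the 10 genes, 5 lie close together on mouse chromosome 17, where H2-DMa, H2-DMb1, H2-Ab1, H2-Aa and H2-Eb1 span 34119541 to 34316674 on GRCm38 (GENCODE vM21), or 197 kb. H2-Aa has 5 annotated exons on the minus strand and H2-Eb1 has 6 on the plus strand. Ciita lies on chromosome 16 (10480059 to 10528418) and Ctss on chromosome 3 (95526786 to 95556403). C1qb (136880129 to 136886187) and C1qa (136895917 to 136898803) are neighbours on the minus strand of chromosome 4. The annotated spans of H2-DMa and Brd2 overlap, as do those of H2-Eb1 and Gm20513, of Cd74 and Mir5107, of Ctss and Hmgb1-ps5, and of Ciita and Dexi. Whether counting used strand is not given in the sources used here, so the values of these 5 genes, and those of H2-DMb1 beside its near copy H2-DMb2, are uncertain to that extent.

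Class II promoters are known for an X box followed by a Y box. The proteins bound to these boxes form the docking surface that CIITA recognises. PU.1 is a factor of macrophages and B cells. RefSeq promoter windows on GRCm38.p6, 250 bases before to 50 after the gene start, were read for 6 of the 10 genes. H2-Ab1, Cd74, Ciita and C1qa are named without a window. The windows of H2-Eb1 (chr17:34305617-34305916, plus strand), H2-DMb1 (chr17:34152941-34153240, plus strand), H2-Aa (chr17:34287774-34288073, minus strand) and Ctss (chr3:95526536-95526835, plus strand) are shown 5′ to 3′ because the first pair share the X and Y layout although their levels followed different patterns, and the second pair set a class II chain gene beside a gene of the macrophage type. Capitals mark every match, on either strand, to ACNGATG (one end of the X box), to CCAAT (the Y box core, read ATTGG on the other strand) and to GAGGAA (the PU.1 core, read TTCCTC).
H2-Eb1: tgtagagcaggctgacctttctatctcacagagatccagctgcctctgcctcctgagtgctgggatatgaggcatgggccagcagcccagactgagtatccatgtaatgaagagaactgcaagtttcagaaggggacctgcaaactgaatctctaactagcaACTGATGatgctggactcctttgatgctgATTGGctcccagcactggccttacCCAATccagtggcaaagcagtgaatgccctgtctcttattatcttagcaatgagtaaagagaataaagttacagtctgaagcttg
H2-DMb1: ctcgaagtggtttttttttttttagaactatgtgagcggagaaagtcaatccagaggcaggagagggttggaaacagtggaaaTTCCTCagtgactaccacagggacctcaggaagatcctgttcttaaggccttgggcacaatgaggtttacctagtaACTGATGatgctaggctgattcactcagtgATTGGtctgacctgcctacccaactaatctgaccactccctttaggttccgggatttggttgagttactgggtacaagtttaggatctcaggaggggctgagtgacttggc
H2-Aa: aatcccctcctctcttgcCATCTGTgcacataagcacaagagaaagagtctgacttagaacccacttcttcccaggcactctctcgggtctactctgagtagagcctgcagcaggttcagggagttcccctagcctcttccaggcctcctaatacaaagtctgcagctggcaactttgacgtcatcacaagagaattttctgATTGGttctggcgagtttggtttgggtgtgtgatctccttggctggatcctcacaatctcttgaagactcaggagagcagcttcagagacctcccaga
Ctss: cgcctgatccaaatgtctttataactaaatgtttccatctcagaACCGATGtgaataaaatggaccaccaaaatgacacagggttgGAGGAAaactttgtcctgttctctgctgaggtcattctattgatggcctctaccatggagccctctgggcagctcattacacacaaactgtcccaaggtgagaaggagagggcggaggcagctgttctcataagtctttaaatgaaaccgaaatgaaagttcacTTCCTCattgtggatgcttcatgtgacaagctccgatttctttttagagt

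In H2-Eb1 the letters ACTGATG begin at position -88 from the gene start and ATTGG at -59, with 22 bases between them. H2-DMb1 has ACTGATG at -91 and ATTGG at -61, with 23 bases between, and also TTCCTC at -167. The H2-Aa window held CATCTGT, the X letters on the other strand, at -232 and ATTGG at -48, and not this layout. The Ctss window held GAGGAA at -164 and the C1qb window held it at -30. Matches to single motifs are frequent: CCAAT was found in 37.4% of 32851 promoter windows of 300 bases, GAGGAA in 28.3% and ACNGATG in 9.85%. The letters ACNGATG 15 to 25 bases before ATTGG, a spacing searched for after the sequences had been seen, was found in 21 windows (0.0639%), of which 9 belong to genes named H2-, near copies of one another among them. A match describes letters only, and no match says only that these letters are not in the window.

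The libraries held 20029817 to 32006229 estimated counts, and every pair of libraries correlated at 0.875 to 0.931 across genes. Ren1, the gene whose promoter drives the sorted reporter, had 5451 to 48620 TPM (a level per transcript length, scaled to the library). The sort selects for it, so this is no check of the renin cell label. Listed markers of other cells were present too, with sums of 152 to 15981 TPM for erythroid genes and 1038 to 10732 TPM for proximal tubule markers. Sham mouse 1 stood apart, since its right and left libraries lay at 128 and 107 on the first principal component (22.7% of the variance) and the other 8 lay below 2 on it. The right and left libraries of coarctation mouse 1 lay highest on the second component, at 110.5 and 72.5. No gene among 18825 tested by the edgeR quasi-likelihood test passed an adjusted p of 0.05 in any of the 5 comparisons (percent called 0). In bulk libraries, fewer cells of a type and less RNA per cell cannot be told apart.

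The class II chain genes were present in every library and their levels spread widely. H2-Aa, the alpha chain of the I-A molecule, had 104, 41.1 and 17.5 TPM in the right kidneys of coarctation mice 1, 2 and 3, against 5.86, 4.15 and 11.9 TPM in their left kidneys. It had 9.60 and 19.6 TPM in the right kidneys of sham mice 1 and 2, against 51.7 and 9.55 TPM in their left kidneys. The right kidneys of coarctation mice lay above the left ones without overlap, while the right and left sham kidneys overlapped, with the sham mice differing in opposite directions. The share of all genes without overlap was not counted, for H2-Aa or for the genes below. The table's average transcript length of H2-Aa was 548 bases in the right and 718 bases in the left library of sham mouse 1, and 825 to 911 bases in the other 8 libraries.

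H2-Ab1 encodes the beta chain that pairs with H2-Aa. It had 353, 143 and 43.5 TPM in the right kidneys of coarctation mice 1, 2 and 3, against 33.9, 31.5 and 20.1 TPM in their left kidneys. Sham right kidneys had 37.0 and 109 TPM, against 149 and 29.6 TPM in sham left kidneys. The order was that of H2-Aa, with right above left in each coarctation mouse, right below left in sham mouse 1 and right above left in sham mouse 2.

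H2-Eb1 encodes the beta chain of the I-E molecule. Its levels were 59.0, 28.3 and 19.1 TPM in right coarctation kidneys, against 5.51, 0.613 and 9.44 TPM in left ones. In sham mice, right kidneys had 3.27 and 20.0 TPM, against 11.7 and 6.67 TPM in sham left kidneys. The left kidney of coarctation mouse 2 had the lowest value of the 10 libraries, at 19.1 estimated counts, and the right coarctation kidneys again lay above the left ones without overlap. I-E also needs an alpha chain, whose gene is known to be defective in C57BL/6 mice, and its pseudogene row, H2-Ea-ps, had 0 to 0.350 TPM.

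Cd74, the invariant chain gene on chromosome 18 (60803848 to 60812652, 10 exons, plus strand), had the highest mean level of the 10 genes. It had 408, 190.0 and 76.4 TPM in the right kidneys of coarctation mice, against 51.2, 62.5 and 29.9 TPM in their left kidneys. The right sham kidneys had 72.9 and 169 TPM, against 211 and 76.2 TPM in sham left kidneys. All 3 left coarctation kidneys lay below both left sham kidneys, and Cd74 was the only one of the 10 genes without overlap between these groups. The share of all genes without overlap between them was not counted, so this does not set Cd74 apart.

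H2-DMa, the alpha chain of the exchange factor H2-DM, was lower in level and was also higher in the right kidney of each coarctation mouse. It had 12.6, 8.82 and 5.27 TPM in right coarctation kidneys, against 3.03, 2.62 and 1.20 TPM in left ones. Sham right kidneys had 2.80 and 4.36 TPM, against 3.10 and 1.73 TPM in sham left kidneys. All 3 right coarctation kidneys lay above both right sham kidneys, and H2-DMa was the only one of the 10 genes without overlap between these groups. The share of all genes without overlap was not counted here either.

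H2-DMb1, the beta chain that pairs with H2-DMa, did not share its pattern. It had 2.24, 4.97 and 0.116 TPM in right coarctation kidneys, against 7.16, 13.7 and 0.895 TPM in left ones. In sham mice, right kidneys had 0.357 and 10.4 TPM, against 0.0321 and 7.25 TPM in sham left kidneys, where the lowest value was 1.03 estimated counts. It was lower in the right kidney of each coarctation mouse and higher in the right kidney of each sham mouse, and all groups overlapped. H2-DMb2, the near copy, reached at most 1.83 TPM.

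Ciita, the master regulator of class II genes, was close to the floor. It had 0.0904, 0.188 and 0.0982 TPM in right coarctation kidneys, against 0.0729, 0.124 and 0.116 TPM in left ones. The right sham kidneys had 0.465 and 0.158 TPM, against 0.616 and 0.0433 TPM in sham left kidneys. These levels rest on 7.44 to 85.7 estimated counts, right and left kidneys overlapped in both operations, coarctation and sham kidneys of the same side overlapped, and both kidneys of sham mouse 1, the mouse that stood apart, had the highest values.

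Ctss had 71.2, 10.6 and 43.7 TPM in right coarctation kidneys, against 4.75, 47.0 and 0 TPM in left ones. Sham right kidneys had 2.72 and 22.2 TPM, against 9.43 and 9.98 TPM in sham left kidneys. The highest library was the right kidney of coarctation mouse 1 and the next the left kidney of coarctation mouse 2, and right and left kidneys overlapped in both operations, as did coarctation and sham kidneys of the same side.

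C1qa, a chain of the C1q molecule, had 3.80, 4.55 and 12.9 TPM in right coarctation kidneys, against 4.29, 9.99 and 2.18 TPM in left ones. In sham mice, right kidneys had 0.293 and 3.99 TPM, against 3.12 and 1.61 TPM in sham left kidneys. C1qb, the chain encoded next to it, had 9.39, 7.72 and 21.1 TPM in right coarctation kidneys, against 0, 50.04 and 0.0856 TPM in left ones. It had 0.165 and 26.7 TPM in sham right kidneys, against 7.79 and 11.5 TPM in sham left kidneys. C1qa and C1qb overlapped between right and left kidneys and between coarctation and sham kidneys of the same side, and the left kidney of coarctation mouse 2 held the highest C1qb value. C1qc, the remaining chain, had its highest value there too, at 16.5 TPM.

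**Figure D1:**
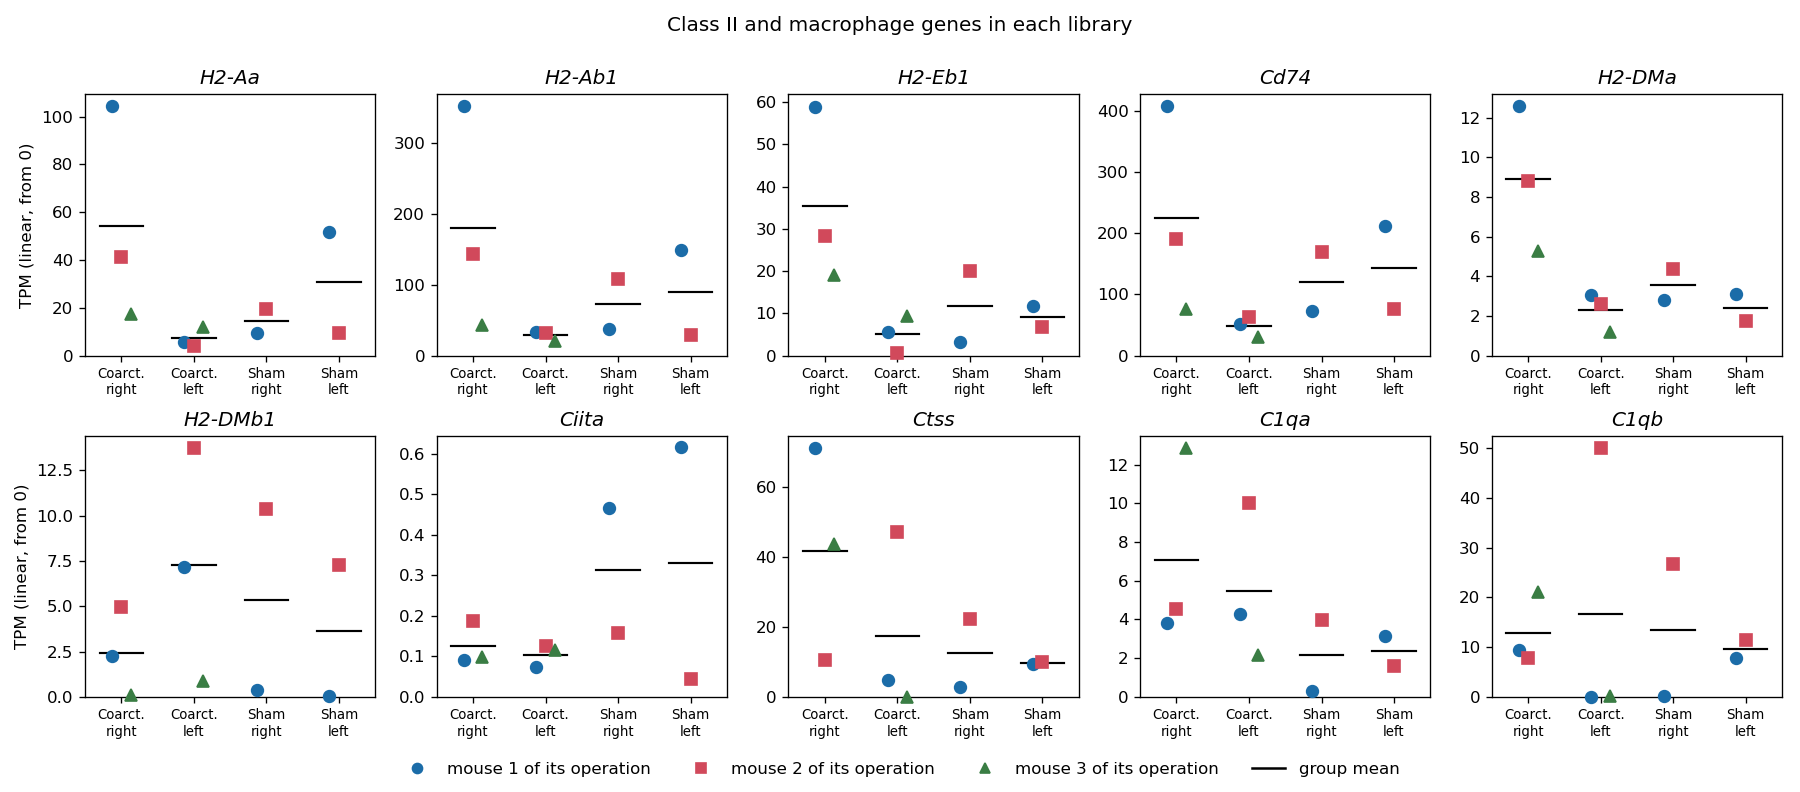
TPM of each of the 10 genes in the 10 libraries, by group, with a point for each mouse and a bar for the group mean. H2-Aa, H2-Ab1, H2-Eb1, Cd74 and H2-DMa lie higher in the right than in the left kidneys of coarctation mice without overlap, while H2-DMb1, Ciita, Ctss, C1qa and C1qb overlap between those 2 groups. H2-Aa, H2-Ab1 and Cd74 were chosen for that direction, and the share of all genes without overlap was not counted.

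Libraries within a group spread widely. Cd74 averaged 225 ± 168 TPM in right coarctation kidneys (SD, n = 3), 47.9 ± 16.5 TPM in left coarctation kidneys (n = 3), 121 ± 67.7 TPM in sham right kidneys (n = 2) and 144 ± 95.5 TPM in sham left kidneys (n = 2). H2-Ab1 averaged 179.7 ± 158 TPM in right coarctation kidneys (SD, n = 3), 28.5 ± 7.37 TPM in left coarctation kidneys (n = 3), 72.8 ± 50.6 TPM in sham right kidneys (n = 2) and 89.5 ± 84.8 TPM in sham left kidneys (n = 2). For both genes the SD in TPM was lowest in left and highest in right coarctation kidneys, where the means were also lowest and highest. Spread relative to the mean was not ranked.

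By level over all 10 libraries, the order was Cd74 (mean 135 TPM), H2-Ab1 (94.9 TPM), H2-Aa (27.5 TPM), Ctss (22.2 TPM), H2-Eb1 (16.4 TPM), C1qb (13.5 TPM), H2-DMb1 (4.71 TPM), C1qa (4.67 TPM), H2-DMa (4.55 TPM) and Ciita (0.197 TPM). Of all genes, 2.94% had a higher mean than Cd74 and 54.4% a higher mean than Ciita. Neighbours in this order overlapped across libraries, except that every library of Ciita lay below every library of H2-DMa.

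Within each mouse the 2 kidneys were set against each other on a log2 CPM scale, which is a depth-scaled count. H2-Aa differed, right minus left, by 4.05, 3.13 and 0.33 in coarctation mice 1, 2 and 3, and by -2.50 and 1.04 in sham mice 1 and 2. Cd74 differed by 2.90, 1.45 and 1.12 in the coarctation mice and by -1.62 and 1.15 in the sham mice. The right kidney was higher in 8, 6 and 8 of the 10 genes in coarctation mice 1, 2 and 3, and in 1 and 10 of them in sham mice 1 and 2.

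H2-DMa was the most even among the coarctation mice, with differences of 1.94, 1.58 and 1.86. Ctss was the least even, with 3.79, -2.30 and 9.75 in the coarctation mice and -1.85 and 1.15 in the sham mice, and C1qb came next, with 6.95, -2.83 and 6.81 in the coarctation mice and -4.95 and 1.22 in the sham mice. The highest of these values, 9.75 for Ctss in mouse 3 and 6.95 and 6.81 for C1qb in mice 1 and 3, are set against left libraries at 0 or 0.0856 TPM and depend on the prior count of 2. The median of the 10 genes was 3.09, 0.93 and 1.00 in coarctation mice 1, 2 and 3 and -1.88 and 1.24 in sham mice 1 and 2, while the median of all genes lay between 0 and 0.03. The sham mice thus gave median differences of opposite sign and of the size seen in the coarctation mice.

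**Figure D2:**
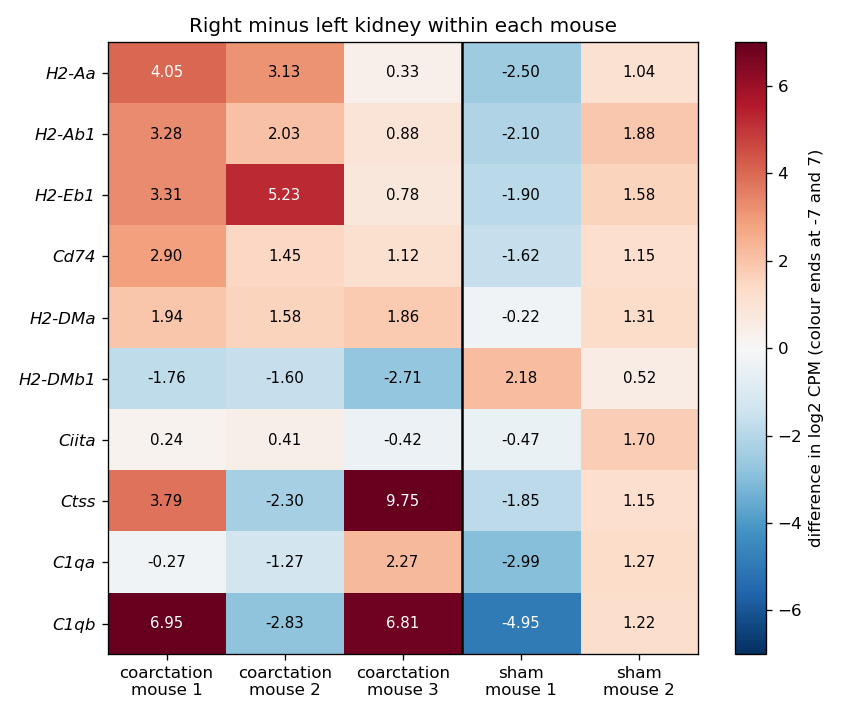
Log2 CPM difference, right minus left kidney, of each of the 10 genes (rows) in each of the 5 mice (columns), with the value printed in each cell. The 5 genes H2-Aa, H2-Ab1, H2-Eb1, Cd74 and H2-DMa are positive in all 3 coarctation mice. All 10 genes are positive in sham mouse 2, and all but H2-DMb1 are negative in sham mouse 1.

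Sham right kidneys were tested against sham left kidneys, in libraries that played no part in choosing the genes. No gene was called among 18825 (percent called 0), and none of the 10 was called. At an unadjusted p under 0.05 none of the 10 was reached, against 366 of all genes (1.94%). DESeq2 called 27 of 17812 genes (0.152%) and limma-voom called 0, with none of the 10 among them. The changes were -1.02 (SE 0.91) log2 units for H2-Aa, -0.24 (SE 0.89) for H2-Ab1, 0.40 (SE 1.07) for H2-Eb1 and -0.21 (SE 0.73) for Cd74, each with an edgeR adjusted p of 1.

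The other 6 genes lay between -0.10 (Ciita, SE 1.20) and 0.57 (H2-DMa, SE 0.76) in the same test. Their standard errors ran from 0.76 to 2.11 (C1qb) log2 units, and each had an edgeR adjusted p of 1. Right and left libraries came from the same 2 mice, and this fit did not use the pairing. Without sham mouse 1 the sham change of H2-Aa was 1.05, that of H2-Ab1 1.88 and that of Cd74 1.15. Without sham mouse 2 the same genes gave -2.53, -2.11 and -1.63.

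Right coarctation kidneys against left coarctation kidneys gave the values that chose the genes, so no test is given for them. The log2 change was 2.80 (SE 0.78) for H2-Aa, 2.59 (SE 0.77) for H2-Ab1, 2.62 (SE 0.92) for H2-Eb1, 2.16 (SE 0.62) for Cd74 and 1.83 (SE 0.64) for H2-DMa. H2-DMb1 lay in the other direction at -1.72 (SE 1.53), and Ciita was at 0.11 (SE 0.99). Ctss was at 1.36 (SE 1.36), C1qa at 0.25 (SE 0.95) and C1qb at -0.37 (SE 1.72).

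The median of the 10 genes was 1.60, beside 0.02 over all genes. Over all genes in this comparison, edgeR called 0% and 871 of 18825 (4.63%) reached an unadjusted p under 0.05. By limma-voom 0 genes were called, and by DESeq2 86 of 19028 (0.452%). With mouse as a block, since both kidneys come from one animal, 5 genes were called (0.0266%). Without coarctation mouse 1 the change was 1.59 for H2-Aa, 1.64 for H2-Ab1, 1.93 for H2-Eb1 and 1.34 for Cd74. The change of Ctss was 0.17 without coarctation mouse 1 and 4.56 without mouse 2. Without coarctation mouse 2 C1qb had left values of 0 and 0.0856 TPM only, against which no change is given. The change of C1qa was 1.26 without coarctation mouse 2 and -0.85 without mouse 3, and that of C1qb was -0.85 without mouse 1 and -1.49 without mouse 3.

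The remaining 3 comparisons use the coarctation libraries that chose the genes, and so are given as values, with no test of the 10 genes read from them. Each shares libraries with the comparisons above. The difference between the side changes, coarctation minus sham, was 3.82 (SE 1.20) for H2-Aa, 2.82 (SE 1.17) for H2-Ab1, 2.22 (SE 1.39) for H2-Eb1 and 2.38 (SE 0.95) for Cd74. Over all genes edgeR called 0%, and 575 (3.05%) reached an unadjusted p under 0.05, while limma-voom called 0 genes and DESeq2 called 37 of 20853 (0.177%). Without sham mouse 1 the difference was 1.75 for H2-Aa, 0.70 for H2-Ab1, 1.03 for H2-Eb1 and 1.01 for Cd74, and without sham mouse 2 it was 5.33, 4.70, 4.56 and 3.80.

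In right kidneys, coarctation against sham gave 2.08 (SE 0.89) for H2-Aa, 1.48 (SE 0.85) for H2-Ab1, 1.73 (SE 1.03) for H2-Eb1, 1.07 (SE 0.68) for Cd74 and 1.46 (SE 0.72) for H2-DMa. Ctss was at 1.89 (SE 1.61) and Ciita at -1.16 (SE 1.09). Over all genes edgeR called 0%, limma-voom 0 genes and DESeq2 51 of 16598 (0.307%), and 720 (3.82%) reached an unadjusted edgeR p under 0.05. Without coarctation mouse 1 the change was 0.98 for H2-Aa, 0.31 for H2-Ab1, 0.98 for H2-Eb1, 0.11 for Cd74 and 0.97 for H2-DMa. Without sham mouse 1 it was 1.59, 0.85, 0.92, 0.52 and 1.10 for these genes, and without sham mouse 2 it was 2.88, 2.66, 3.80, 1.99 and 1.99.

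In left kidneys, coarctation against sham gave -1.74 (SE 0.81) for H2-Aa, -1.35 (SE 0.80) for H2-Ab1, -0.48 (SE 0.97) for H2-Eb1 and -1.31 (SE 0.65) for Cd74. H2-DMa was at 0.20 (SE 0.70) and C1qa at 1.44 (SE 1.12). Over all genes edgeR called 0%, limma-voom 0 genes and DESeq2 50 of 17205 (0.291%), and 894 (4.75%) reached an unadjusted edgeR p under 0.05. Without sham mouse 1 the change was -0.17 for H2-Aa, 0.14 for H2-Ab1 and -0.49 for Cd74, and without sham mouse 2 it was -2.45, -2.04 and -1.80.

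The 10 genes fell into different patterns across libraries. With the mean log2 CPM of H2-Aa, H2-Ab1, H2-Eb1 and Cd74, Pearson's r over the 10 libraries was 0.80 for H2-DMa, 0.36 for Ctss, 0.29 for C1qb, 0.15 for C1qa, 0.13 for Ciita and -0.16 for H2-DMb1. The mean of Ctss, C1qa and C1qb had an r of 0.34 with that of the 4 class II genes. These are descriptions, because the 10 libraries come from 5 mice and the libraries of a mouse are not independent.

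The summed level of H2-Aa, H2-Ab1, H2-Eb1 and Cd74 was 924, 402 and 157 TPM in right coarctation kidneys, against 96.5, 98.7 and 71.4 TPM in left ones. It was 123 and 317 TPM in sham right kidneys, against 424 and 122 TPM in sham left kidneys. The summed level of Ctss, C1qa and C1qb was 84.3, 22.8 and 77.8 TPM in right coarctation kidneys, against 9.05, 107 and 2.27 TPM in left ones. It was 3.18 and 52.9 TPM in sham right kidneys, against 20.3 and 23.1 TPM in sham left kidneys. The left kidney of coarctation mouse 2 was thus the highest library for the sum of Ctss, C1qa and C1qb and among the lower ones for the class II sum. The ratio of the sums ran from 0.922 to 38.6. That library also had the highest neutrophil marker sum, at 101 TPM, with S100a8 at 70.4 TPM and S100a9 at 29.1 TPM. The next highest neutrophil sum was 5.04 TPM, in the right kidney of sham mouse 1.

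**Figure D3:**
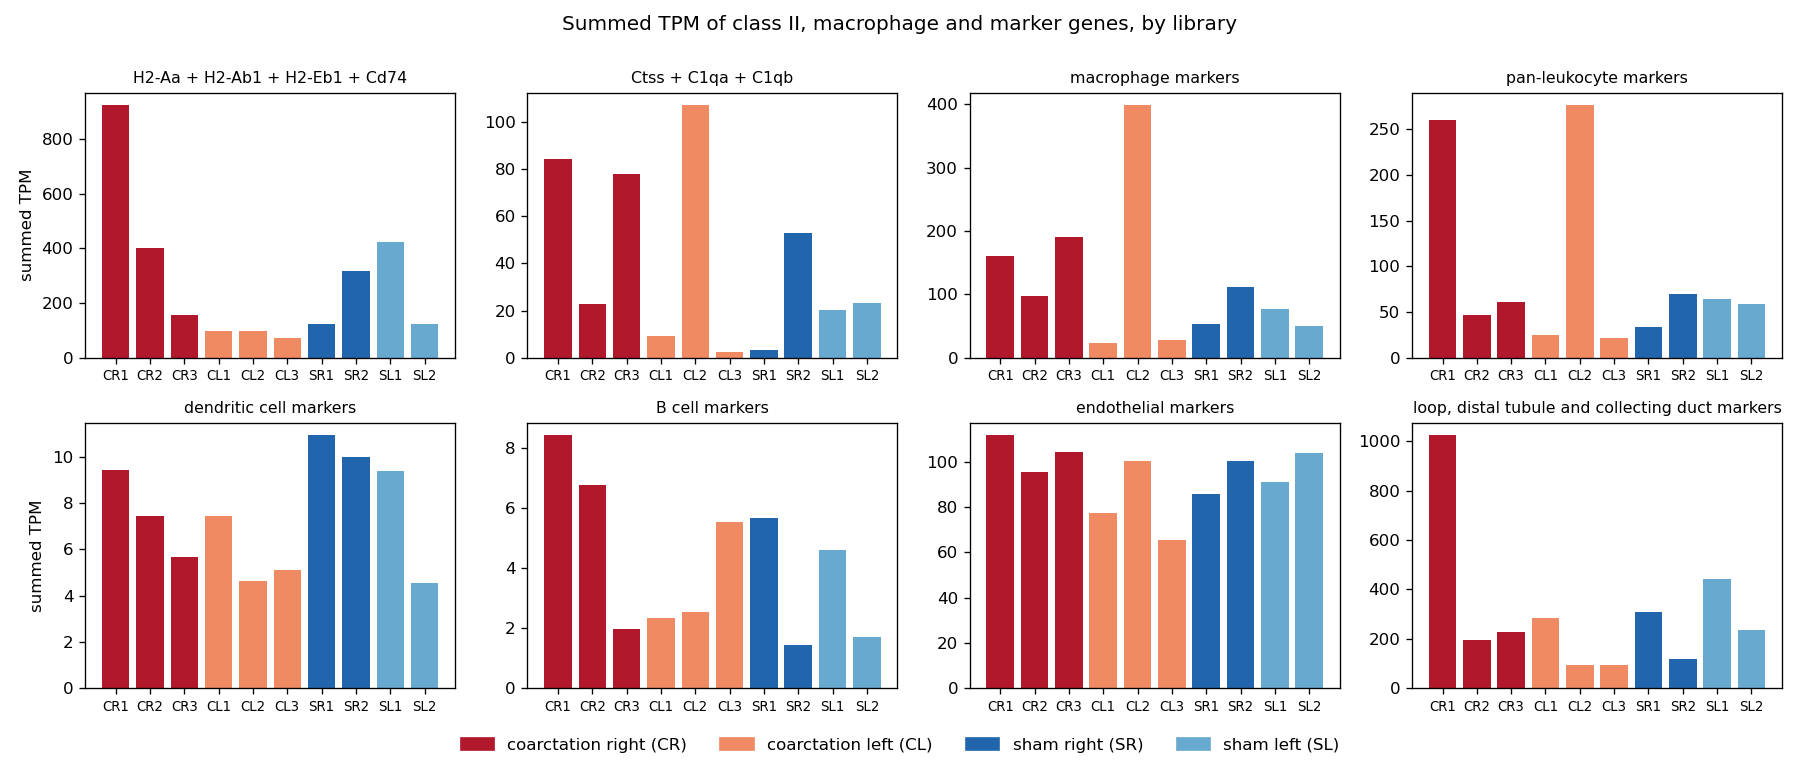
Summed TPM of H2-Aa, H2-Ab1, H2-Eb1 and Cd74, of Ctss, C1qa and C1qb, and of 6 marker lists, in each of the 10 libraries (bars from 0, coloured by group). The right kidney of coarctation mouse 1 is highest for the class II sum, at 924 TPM, and the left kidney of coarctation mouse 2 is highest for the sum of Ctss, C1qa and C1qb, at 107 TPM.

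Markers of leukocytes were set beside these values. Adgre1, the macrophage marker F4/80, had 0 to 0.609 TPM, and Csf1r, the receptor macrophages need to survive, had 0.118 to 1.92 TPM. Lyz2, the macrophage lysozyme, had 66.5, 34.2 and 141 TPM in right coarctation kidneys, against 0.133, 228 and 0.0243 TPM in left ones, and 2.38 and 23.8 TPM in sham right kidneys, against 19.0 and 5.44 TPM in sham left kidneys. Of the listed genes it followed the Ctss and C1q mean most closely (r 0.93 over the 10 libraries), and Tyrobp, a signalling adaptor of myeloid cells, came next (r 0.86). C1qc, the remaining C1q chain, had an r of 0.51 with that mean. The 18 macrophage markers summed to 96.7 to 190.4 TPM in right coarctation kidneys, 23.8 to 398 TPM in left ones, 54.0 to 111 TPM in sham right kidneys and 49.7 to 76.3 TPM in sham left kidneys, with at most 2 of the 18 at 0 in a library. Their part in the C1q and Ctss values was not tested.

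In the library with the highest class II sum, the right kidney of coarctation mouse 1, several leukocyte genes also had their highest level. Cd52, a surface protein of leukocytes, had 124 TPM there, against 0.504 to 57.4 TPM in the other 9 libraries. Ptprc (2.09 TPM), Cd53 (6.27 TPM), the monocyte and macrophage gene Cd14 (23.2 TPM), the dendritic cell factor genes Zbtb46 (4.39 TPM) and Irf8 (2.47 TPM), the antibody light chain gene Igkc (6.68 TPM) and Adgre1 (0.609 TPM) were highest in it too. Fcer1g, Tyrobp and Aif1 had 75.7, 49.2 and 21.7 TPM there, second to 103, 107 and 23.2 TPM in the left kidney of coarctation mouse 2.

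Other markers were not high in that library. Mertk (5.57 TPM), Siglech (0.144 TPM) and the B cell genes Pax5 (0.0233 TPM) and Cd22 (0.161 TPM) had their lowest level there, and Batf3, Fcer2a, Csf1r and Itgax lay within the range of the others at 1.97, 0.662, 0.226 and 0.202 TPM. The 8 pan-leukocyte markers summed to 46.4 to 261 TPM in right coarctation kidneys, 21.3 to 276 TPM in left ones, 34.0 to 70.1 TPM in sham right kidneys and 58.4 to 64.4 TPM in sham left kidneys, with none at 0. The sum was 261 TPM in the right kidney of coarctation mouse 1, where the class II sum was 924 TPM, and 276 TPM in the left kidney of coarctation mouse 2, where the class II sum was 98.7 TPM.

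Dendritic cell markers summed to 4.54 to 10.9 TPM over all libraries and B cell markers to 1.42 to 8.43 TPM, with at most 2 of 11 and 2 of 10 genes at 0. Dendritic sums were 5.69 to 9.46 TPM in right coarctation kidneys, 4.62 to 7.43 TPM in left ones, 10.0 to 10.9 TPM in sham right kidneys and 4.54 to 9.38 TPM in sham left kidneys. B cell sums were 1.96 to 8.43 TPM in right coarctation kidneys, 2.34 to 5.52 TPM in left ones, 1.42 to 5.67 TPM in sham right kidneys and 1.71 to 4.61 TPM in sham left kidneys. Their part in the class II values was not tested.

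Tubule cell markers were set beside the class II sum too. The intercalated cell gene Atp6v1g3, which encodes part of a proton pump, had 654, 75.5 and 101 TPM in right coarctation kidneys, against 63.4, 24.3 and 8.78 TPM in left ones. It had 108 and 61.5 TPM in sham right kidneys, against 84.1 and 121 TPM in sham left kidneys. The right kidney of coarctation mouse 1 had the highest Atp6v1g3 value, as it did for the class II sum. Calb1 was highest there too, at 194 TPM. Umod and Aqp2 had 48.3 and 58.7 TPM there and were highest in the left kidney of sham mouse 1, at 188 and 99.7 TPM. The 12 loop, distal tubule and collecting duct markers summed to 194 to 1024 TPM in right coarctation kidneys, 92.9 to 283 TPM in left ones, 117 to 308 TPM in sham right kidneys and 236 to 442 TPM in sham left kidneys, with none at 0. Atp6v1g3 alone gave 654 of the 1024 TPM. In right against left coarctation kidneys 9 of the 12 were higher and 3 lower, none called. Their part in the class II values was not tested. Ren1 had 5451, 11982 and 10836 TPM in right coarctation kidneys, against 29285, 48620 and 36877 TPM in left ones, and TPM is a share of all transcripts in a library.

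Other listed cell types varied between libraries as well. Over all libraries the summed TPM was 9.12 to 49.4 for monocytes, 3.28 to 16.8 for T and NK cells and 0.516 to 101 for neutrophils. It was 152 to 15981 for erythroid genes, 65.3 to 112 for endothelial markers, 1038 to 10732 for proximal tubule markers and 17.9 to 44.7 for podocyte markers. None of the 173 listed genes tested was called by edgeR in any of the 5 comparisons, in lists chosen with earlier results known. At an unadjusted p under 0.05 there were 17 (9.83%, beside 4.63% of all genes) in right against left coarctation kidneys and 1 (0.578%, beside 1.94%) in right against left sham kidneys. There were 8 (4.62%, beside 3.05%) in the difference, 10 (5.78%, beside 4.75%) in left and 9 (5.20%, beside 3.82%) in right kidneys of coarctation against sham mice.

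Of other genes of the class II pathway, 28 of 29 symbols matched a row and 27 were tested. In right against left coarctation kidneys 7 were higher and 20 lower, none of them called, with a median of -0.40 beside 0.02 for all genes, and in sham right against left kidneys 14 were higher and 13 lower, none called, with a median of 0.03. The most abundant were the lysosomal proteases Ctsb, Ctsl and Ctsd and the CIITA partner gene Rfxap. Ctsb was at -1.15 (SE 0.39) and Rfxap at -0.34 (SE 0.39) log2 units in the coarctation comparison. Class I presentation genes, 12 in number, had 6 higher and 6 lower with a median of -0.05, and the 16 interferon-induced genes had 11 higher and 5 lower with a median of 0.31, none of them called. The 10 genes of complement C1 and its partners had 3 higher and 7 lower with a median of -0.26, none called. B2m, the light chain of class I, ranged from 404 to 767 TPM.

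Genes whose level followed the class II mean most closely, among 9888 compared, were Slc39a3, a zinc transporter (r 0.91), Zfp180, a zinc finger protein (r 0.91), Trappc10 (r 0.86), Secisbp2l (r 0.86) and Mynn (r 0.86). Stxbp3 (r 0.86), Cldn8 (r 0.84), Rbbp8 (r 0.83), Atp6v1c2 (r 0.83) and Prpf6 (r 0.81) came next. These are the 10 highest of 9888 values, over 10 libraries from 5 mice. How many genes would reach such values by chance was not counted. Cldn8, a claudin of the distal nephron, had 28.3, 7.90 and 1.81 TPM in right coarctation kidneys, against 5.84, 0.0538 and 1.60 TPM in left ones, and 0.631 and 7.83 TPM in sham right kidneys, against 4.43 and 2.67 TPM in sham left kidneys. Atp6v1c2, a proton pump subunit, had 45.8, 13.4 and 14.3 TPM in right coarctation kidneys, against 7.85, 3.22 and 2.51 TPM in left ones, and 5.28 and 7.66 TPM in sham right kidneys, against 11.5 and 12.3 TPM in sham left kidneys.

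**Figure D4:**
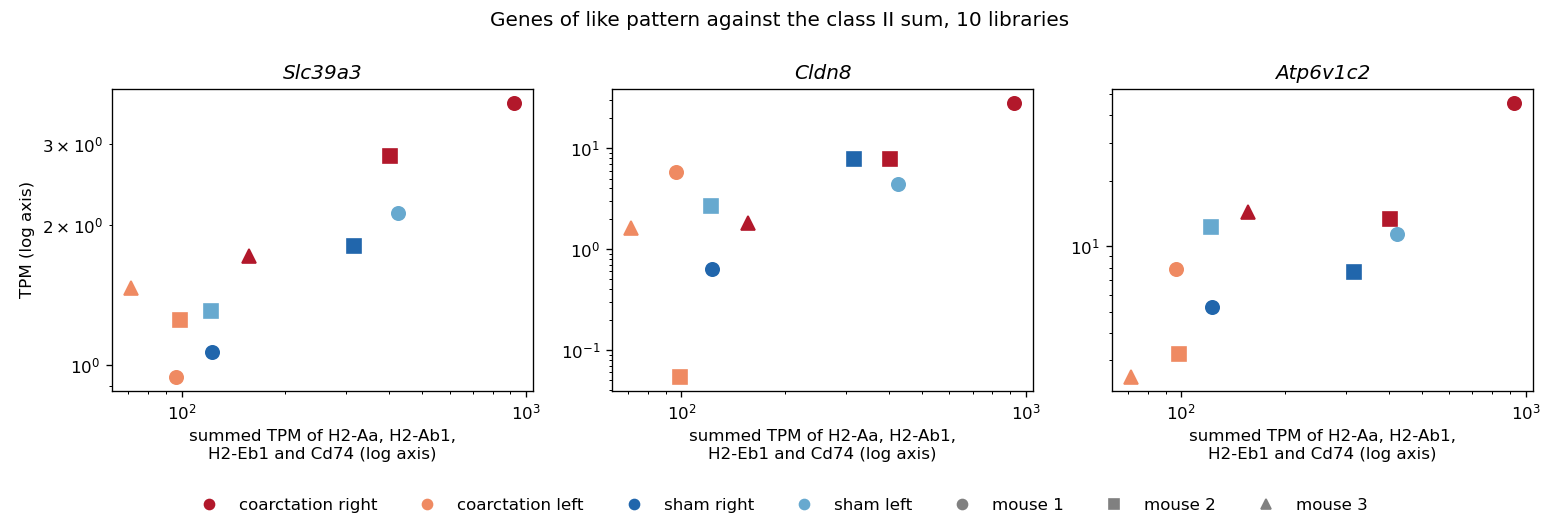
TPM of Slc39a3, Cldn8 and Atp6v1c2 (log axes) against the summed TPM of H2-Aa, H2-Ab1, H2-Eb1 and Cd74 in the 10 libraries, with colour for group and shape for mouse. The genes drawn ranked 1, 7 and 9 by r among the 10 named, and the others are not shown. The right kidney of coarctation mouse 1 is highest on both axes in each panel, at 28.3 TPM for Cldn8 and 45.8 TPM for Atp6v1c2.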

How the data were processed

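RNA was measured in 10 libraries of sorted renin cells. Per the file headers the deposited table gives TPM, estimated counts and the average transcript length for 32648 genes, and a column of it states that the estimated counts were made from TPM scaled by length and library size. FastQC and the build GRCm38 (mm10) are named in the submitters' processing notes, while the sources used here do not give the aligner or quantifier.

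The estimated counts were rounded. Genes with few counts were removed by filterByExpr, which left 18825, and TMM scaling and a quasi-likelihood model of the 4 groups were fitted in edgeR 4.0.16 (R 4.3.3), with Benjamini-Hochberg adjustment over all tested genes and a threshold of 0.05. The common dispersion was 0.450 and 6 residual degrees of freedom remained. TPM means are given with SD. Log2 CPM used a prior count of 2. DESeq2 1.42.0, limma-voom (limma 3.58.1), RLE scaling, no filter, only the groups compared, a mouse block and the omission of each library and mouse were tried as alternatives. Both kidneys carry one mouse number in the labels, so they are paired, but the main fit did not use the pairing. Correlations of the deviations of the 2 kidneys were 0.127, 0.0496 and 0.0307 in the coarctation mice and 0.398 in the sham mice.

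The genes, the 17 marker lists and these comparisons were chosen with earlier results of these data known. Of each list the 4 genes with the highest mean TPM, and of genes of like pattern the 10 with the highest r at a mean log2 CPM of at least 2, predicted genes left out, were to be named. The text gives all 4 of the pan-leukocyte, macrophage, dendritic cell, B cell, class II pathway and loop, distal tubule and collecting duct lists and fewer of the others. Ptprc, Adgre1, Csf1r, Itgax, H2-DMb2 and H2-Ea-ps fall outside that rule and were named after their values were seen. Of the genes of like pattern, no rule chose Cldn8 and Atp6v1c2 for values by library, or these and Slc39a3 for the figure.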

Additional observations from a re-analysis of the deposited data

Results flagged for a closer look

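H2-DMb1 drew attention because its side change differed between coarctation and sham mice. It was lower in the right kidney of 3 of 3 coarctation mice and higher in the right kidney of 2 of 2 sham mice, and the difference between the side changes was -2.27 log2 units (SE 2.38). Without the left library of sham mouse 2 this difference was -9.14, with a left sham value of 0.0321 TPM, or 1.03 estimated counts, remaining. Without the right library of that mouse it was 1.82, with its sign turned. The right sham value then remaining was 0.357 TPM, or 10.5 estimated counts. The direction in sham mouse 1 rests on these same low values. The difference uses libraries that chose the genes, so no test of H2-DMb1 in it is given. The part of the reads that H2-DMb1 took beside H2-DMb2 was not tested.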

How the results depend on the processing

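Counts of called genes changed with the method in the 5 comparisons, while the 10 genes were called only without a filter. Without the filter on low counts, 31370 genes were tested in each comparison. Of these, 19 were called in sham right against left kidneys, 112 in coarctation right against left and 63 in the difference. In coarctation against sham mice, 67 were called in left and 70 in right kidneys. The 112 held 4 of the 10 genes (H2-Aa, H2-Ab1, H2-Eb1 and Cd74), and the 63 held 3 of them (H2-Aa, H2-Ab1 and Cd74). That is no test of the 10 genes, since these libraries chose them. DESeq2 called 27, 86, 37, 50 and 51 genes in that order of comparisons. With the replicate block by mouse, coarctation right against left called 5 genes; comparisons of coarctation with sham mice have no block, since their numbers name different mice. Leaving out a library or mouse gave 0 to 4 called genes in coarctation right against left, 0 to 1 in the difference and 0 to 3 in right kidneys. Every count above 0 came from leaving out the right library or both libraries of coarctation mouse 3. In sham right against left kidneys, limma-voom turned H2-Eb1 to -0.0834, Ciita to 0.73, Ctss to -0.28 and C1qb to -1.99, and the replicate block by mouse turned them to -0.15, 0.68, -0.33 and -1.68. Leaving out a sham library or mouse gave -2.53 to 1.05 for H2-Aa, -2.11 to 1.88 for H2-Ab1, -1.94 to 1.59 for H2-Eb1, -1.63 to 1.15 for Cd74, -0.24 to 1.34 for H2-DMa, -3.53 to 7.42 for H2-DMb1, -1.001 to 2.74 for Ciita, -2.01 to 1.27 for Ctss, -3.46 to 1.33 for C1qa and -5.99 to 1.54 for C1qb. The cause was not tested. Values of Ciita, and of H2-DMb1 in its lowest libraries, rest on few counts, and depth limits them.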

Other observations

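Of the sum of H2-Aa, H2-Ab1, H2-Eb1 and Cd74 in TPM, Cd74 took 42.0 to 63.3% and H2-Ab1 24.3 to 38.2% over the 10 libraries, while H2-Eb1 took 0.621 to 13.2%. The H2-Eb1 share was 6.38, 7.03 and 12.2% in the right kidneys of coarctation mice 1, 2 and 3, against 5.71, 0.621 and 13.2% in their left kidneys. It was 2.66 and 6.31% in the right kidneys of sham mice 1 and 2, against 2.76 and 5.47% in their left kidneys. The left kidney of coarctation mouse 2 was the lowest.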
